A study of Mus musculus with 6 samples.

Results

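The genes described here are the 4 platelet-derived growth factor (PDGF) chains Pdgfa, Pdgfb, Pdgfc and Pdgfd, the PDGF receptors Pdgfra and Pdgfrb, and the 4 vascular endothelial growth factor (VEGF) genes Vegfa, Vegfb, Vegfc and Vegfd, 10 of the 22180 genes measured. They were taken by gene symbol, and each had 1 probe set on the array. The samples were mouse embryonic fibroblasts, primary connective tissue cells grown from embryos, of genotype Pax7-/- (knockout, 3 arrays) and Pax7+/+ (wild type, 3 arrays). All were on the F1 (C57Bl6N x 129Sv) background, grown in serum-containing medium and collected at confluence. The arrays of each genotype carry biological replicate numbers 1 to 3, and knockout was compared with wild type by that number. For replicates 1 and 2 the arrays show little pairing beyond the number. Signs and spreads over the 3 pairs given below thus depend on this numbering. The labels do not say which part of Pax7 is missing, nor whether the numbered replicates came from separate embryos or cultures. With the replicate number as a block, p-values measure the spread of the 3 pair differences, which limma draws toward that of all genes. Without the block they measure the spread between arrays of the same genotype, drawn in the same way. Either spread may therefore be technical.

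PDGFs are dimeric growth factors that drive the division and migration of fibroblasts and other mesenchymal cells through a pair of receptor tyrosine kinases: the alpha receptor (Pdgfra) binds the A, B and C chains, and the beta receptor (Pdgfrb) binds the B and D chains. VEGFs belong to the same cystine knot family and act mainly on endothelial cells. Fibroblasts secrete them, VEGF-A and VEGF-B acting through the receptor Flt1 and VEGF-A also through Kdr, while VEGF-C and VEGF-D act on lymphatic vessels through Flt4.

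All values below are signals on the log2 scale, and a difference is the knockout value minus the wild type value. The replicate 3 array of each genotype differed from replicates 1 and 2: its correlation with any of those 4 arrays was 0.814 to 0.844, compared with 0.992 between the replicate 3 arrays and 0.988 to 0.99 within the remaining 4. Background on each array was the level below which 95% of 1394 odorant and pheromone receptor genes lay. It was 4.63 to 5.43 on knockout arrays and 4.65 to 5.44 on wild type arrays, lowest on the replicate 3 array of each genotype. The interquartile range of the signals was 2.98 on knockout replicate 3 and 3.02 on wild type replicate 3, against 1.61 to 1.69 on the remaining 4 arrays. Differences and shifts read on replicate 3 thus come from arrays of wider spread than those of replicates 1 and 2. The Pax7 probe set read 6.17, 5.95 and 5.05 in knockout replicates 1, 2 and 3, against 6.14, 5.65 and 4.88 in wild type, a difference of 0.16 (SE 0.10). Where the probes lie relative to the missing stretch of the gene is unknown here, so they do not check the genotype. Of the fibroblast markers, 9 of 11 lay above background on all 6 arrays (mean log2 signal over the list 8.55 to 9.26 on knockout and 8.73 to 9.52 on wild type arrays). None of the 11 passed the test described below, and their median difference was -0.11. The collagen Col3a1 was at -0.40 (SE 0.10, limma adjusted p = 0.432) and S100a4 at -0.26 (SE 0.09, adjusted p = 0.642), each lower in the knockout in all 3 pairs. The proteoglycan Lum lay above background on 1 of 3 arrays of each genotype. It was at -1.16 (SE 0.20; -0.70, -0.84 and -1.95 in the 3 pairs; adjusted p = 0.127), and its genotypes did not overlap. Other markers of the list went the other way. Fn1 was at 0.14 (SE 0.09, limma adjusted p = 0.814), higher in the knockout in all 3 pairs, and its genotypes did not overlap either. Vim was at 0.04 (SE 0.09). These values stand beside those of Vegfd and Pdgfra below, and their part in them was not tested. The cell type label reads ESCs (embryonic stem cells), but 7 of the 8 pluripotency markers did not lie above background on every array. Pou5f1 was the exception, at 5.48, 5.80 and 4.78 in the knockout and 5.62, 5.55 and 4.73 in wild type.

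None of the 10 genes passed the threshold, an adjusted p of 0.05 over all 22180 genes, in limma with the replicate number as a block, where 0.0766% of all genes passed (0.00902% higher and 0.0676% lower in the knockout). Without the block none passed either (0% of all genes). The lymphangiogenic factor Vegfd had the largest difference of the 10, -0.71, and its signal was lower in the knockout in all 3 pairs. Pdgfra, the receptor that marks embryonic mesenchyme, was at -0.36 and the angiogenic factor Vegfa at 0.31. The remaining 7 genes had differences between -0.14 and 0.14. At an unadjusted p under 0.05 with the block there were 3 of the 10 (Vegfd, Pdgfra and Vegfa), against 6.73% of all genes, and without it 0 of the 10, against 0.0676% of all genes.

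The 250 bases upstream of the RefSeq start of the genes with the 3 smallest p-values are shown for context (assembly GRCm38.p6, from the RefSeq promoter table, which held 8 of the 10 genes; where a gene had several starts, the outermost). Vegfd is at chrX:164373272-164373521 on the plus strand, Pdgfra at chr5:75152001-75152250 on the plus strand and Vegfa at chr17:46032378-46032627 on the minus strand. Capitals mark matches, on either strand, to TATAAA (the TATA box), GGGCGG (the GC box bound by Sp1), ATTA (the core of homeodomain sites, the homeodomain being 1 of the DNA-binding domains of Pax7) and ACGTG (the core bound by hypoxia-inducible factors).
Vegfd: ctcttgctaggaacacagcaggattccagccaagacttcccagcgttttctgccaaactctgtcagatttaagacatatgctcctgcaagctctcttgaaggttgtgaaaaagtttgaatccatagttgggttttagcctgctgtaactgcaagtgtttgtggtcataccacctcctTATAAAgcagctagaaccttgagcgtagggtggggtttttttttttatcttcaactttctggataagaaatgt
Pdgfra: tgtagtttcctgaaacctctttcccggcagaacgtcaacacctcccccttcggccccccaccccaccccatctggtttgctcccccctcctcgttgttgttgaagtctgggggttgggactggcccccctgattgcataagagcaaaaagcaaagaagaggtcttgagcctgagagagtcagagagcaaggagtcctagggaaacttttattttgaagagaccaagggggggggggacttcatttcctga
Vegfa: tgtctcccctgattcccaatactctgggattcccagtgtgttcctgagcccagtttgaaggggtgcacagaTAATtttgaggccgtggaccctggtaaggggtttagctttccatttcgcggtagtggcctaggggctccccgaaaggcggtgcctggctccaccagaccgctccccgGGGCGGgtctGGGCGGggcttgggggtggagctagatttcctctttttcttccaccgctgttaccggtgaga
The Vegfd window held 1 TATAAA, a motif found in 13% of 27025 windows of this length. The Vegfa window held 2 GGGCGG, found in 33% of windows, and 1 ATTA on the other strand, found in 55.4%. The Pdgfra window held none of the 4 motifs. ACGTG, found in 16.5% of windows, was in none of the 3. These matches are descriptions of the windows and are not shown to be binding sites.

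All 10 genes lay above background on all 6 arrays, as did 37.9% of all genes, but by unequal margins. Pdgfd was the closest to it, 0.04 above on knockout replicate 1, followed by Vegfd (0.19, knockout replicate 2) and Pdgfra (0.25, knockout replicate 1). Pdgfrb, Pdgfc, Vegfb and Pdgfa were at least 2.00 above it on every array. For all 10 genes the ranges of the genotypes overlapped. Over all genes, 1.41% had ranges that did not overlap.

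**Figure D1:**
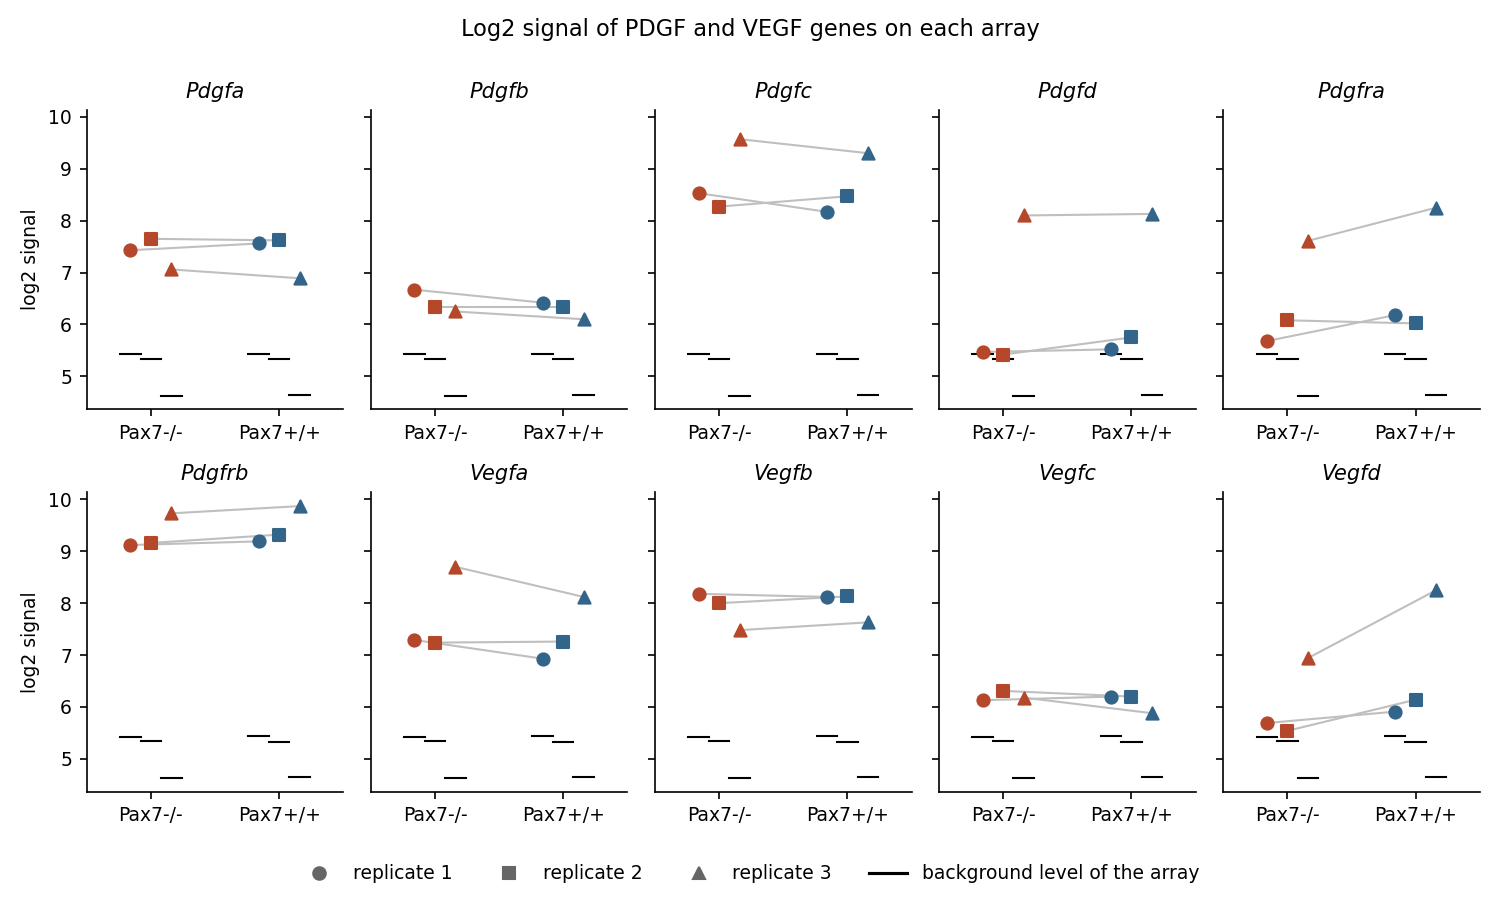
Log2 signal (vertical axis) of each gene on the 3 Pax7-/- arrays (left, red) and the 3 Pax7+/+ arrays (right, blue); grey lines join arrays of the same replicate number, and short black lines give the background level of each array. The triangles of replicate 3 lie above the other arrays for Pdgfc, Pdgfd, Pdgfra, Pdgfrb, Vegfa and Vegfd in both genotypes, least so for Pdgfrb. In every panel the genotypes overlap.

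Among the PDGF ligands, Pdgfa, which encodes the A chain, read 7.43, 7.65 and 7.06 in knockout replicates 1, 2 and 3, against 7.56, 7.62 and 6.89 in wild type. The replicate 3 array was the lowest of each genotype. The difference was 0.02 (SE 0.10, 95% interval -0.20 to 0.24), with pair differences of -0.13, 0.03 and 0.17. Without replicate 3 it was -0.05.

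Pdgfb, the B chain, which binds both receptors, read 6.67, 6.34 and 6.25 in the knockout, against 6.42, 6.34 and 6.10 in wild type. The second pair read the same to 2 decimals, and the knockout was the higher in the other pairs. The difference was 0.14 (SE 0.09, interval -0.08 to 0.35), and 0.07 without replicate 1.

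Pdgfc and Pdgfd are secreted as latent factors with a CUB domain that proteases remove. Pdgfc read 8.53, 8.27 and 9.57 in the knockout, against 8.17, 8.47 and 9.30 in wild type. Its pairs did not share a sign (0.37, -0.20 and 0.27), and the difference was 0.14 (SE 0.12, interval -0.13 to 0.42). It was 0.03 without replicate 1 and 0.32 without replicate 2.

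Pdgfd read 5.47, 5.42 and 8.10 in the knockout, against 5.52, 5.75 and 8.13 in wild type. Replicates 1 and 2 of both genotypes lay close to background, and replicate 3 was 2.65 log2 higher than their mean in the knockout and 2.49 higher in wild type. The genotype difference was far smaller, -0.14 (SE 0.10, interval -0.36 to 0.08), with the knockout the lower in all 3 pairs (-0.06, -0.33 and -0.04). Without replicate 2 it was -0.05.

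Of the receptors, Pdgfra read 5.68, 6.08 and 7.61 in knockout replicates 1, 2 and 3, against 6.18, 6.02 and 8.25 in wild type. The knockout was the lower in replicates 1 and 3, by 0.50 and 0.64 on the log2 scale, and not in replicate 2 (0.06). The mean was 6.46 ± 1.02 in the knockout and 6.82 ± 1.25 in wild type (SD, n = 3 each). The difference was -0.36 (SE 0.13, interval -0.66 to -0.06), a fold of 0.78, with a limma adjusted p of 0.675. It was -0.57 (adjusted p = 0.299) without replicate 2 and -0.22 without replicate 3. In bulk RNA such as this, fewer cells that express a gene and less of its RNA per cell cannot be told apart.

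Pdgfrb, the beta receptor of fibroblasts and pericytes, read 9.12, 9.16 and 9.73 in the knockout, against 9.19, 9.32 and 9.87 in wild type. The 3 pairs lay close together (-0.07, -0.16 and -0.14), and their SD of 0.05 was the smallest of the 10 genes. The difference was -0.12 (SE 0.09, interval -0.33 to 0.08, adjusted p = 0.853).

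Among the VEGF genes, Vegfa, the main angiogenic factor and a target of hypoxia-inducible factors, read 7.29, 7.24 and 8.70 in the knockout, against 6.93, 7.26 and 8.12 in wild type. The knockout was the higher in replicates 1 and 3 (0.35 and 0.57), while replicate 2 was level (-0.01). The mean was 7.74 ± 0.83 in the knockout and 7.44 ± 0.62 in wild type (SD, n = 3 each). The difference was 0.31 (SE 0.12, interval 0.04 to 0.57), a fold of 1.24, with a limma adjusted p of 0.689. It was 0.46 without replicate 2 and 0.17 without replicate 3.

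Vegfb, a ligand of Flt1, read 8.18, 8.0 and 7.48 in the knockout, against 8.12, 8.13 and 7.63 in wild type, a difference of -0.07 (SE 0.09, interval -0.29 to 0.14). Vegfc, the main growth factor of lymphatic vessels, read 6.13, 6.31 and 6.18 in the knockout, against 6.20, 6.20 and 5.88 in wild type, a difference of 0.12 (SE 0.10, interval -0.11 to 0.34). Neither gene had the same sign in all 3 pairs, and both moved with the pairs. Vegfb was -0.14 without replicate 1 and -0.03 without replicate 3, and Vegfc was 0.21 without replicate 1 and 0.02 without replicate 3.

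Vegfd, the closest relative of Vegfc, read 5.69, 5.54 and 6.94 in knockout replicates 1, 2 and 3, against 5.91, 6.14 and 8.25 in wild type. The knockout array was the lower in every pair, but knockout replicate 3 was higher than wild type replicates 1 and 2. The mean was 6.05 ± 0.77 in the knockout and 6.76 ± 1.29 in wild type (SD, n = 3 each). The pair differences were -0.21, -0.60 and -1.31, with an SD of 0.56 against a median of 0.15 over all genes. The fitted difference was -0.71 (SE 0.17, interval -1.10 to -0.32), a fold of 0.612. Its limma adjusted p was 0.368, and it ranked 157 of 22180 genes by unadjusted p (0.00263). Without the block the SE was 0.74 and the unadjusted p 0.376.

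This value depended on the pairs. Without replicate 1 Vegfd was at -0.96 (SE 0.15) and passed (limma adjusted p = 0.00408), in a fit of 2 pairs in which 0.442% of all genes passed. Those 2 pairs were -0.60 and -1.31, so the small SE rests mainly on the variance of all genes and not on Vegfd's own pairs. Without replicate 2 it was at -0.76 (adjusted p = 0.529), and 0 of the 10 passed, against 0.00902% of all genes. Without replicate 3 it was at -0.41 (adjusted p = 0.825), and 0 of the 10 passed, against 0.018% of all genes. Vegfd lies on the X chromosome. The X-linked Xist, which is transcribed from the inactive X of female cells, read 9.53, 9.30 and 10.23 in the knockout, against 9.49, 9.77 and 10.57 in wild type, and the Y-linked Kdm5d, Uty and Eif2s3y lay above background on 0 of the 6 arrays. These sex-linked genes were looked up after the Vegfd values were seen.

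**Figure D2:**
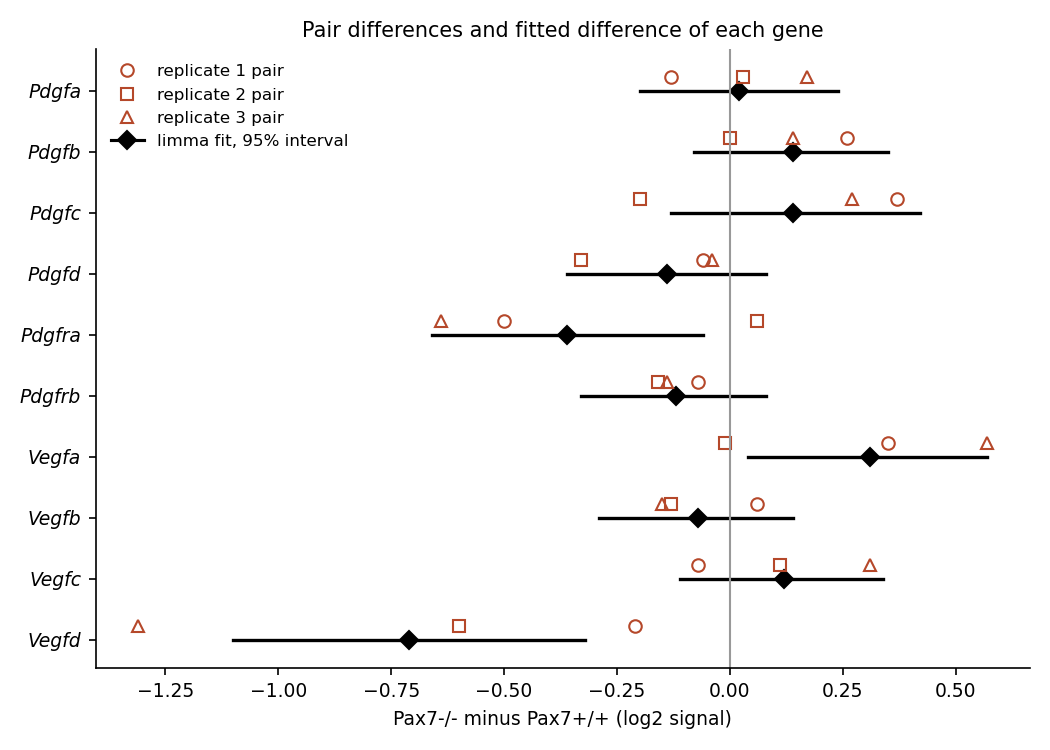
Knockout minus wild type in log2 signal (horizontal axis) for each gene: open red symbols are the 3 replicate pairs, and black diamonds with lines are the limma fit with the replicate block and its 95% interval, not adjusted for the number of genes. Vegfd (-0.71) and Pdgfra (-0.36) lie below 0 with their intervals and Vegfa (0.31) above it, while the other 7 intervals include 0. The pair SDs of Vegfd, Pdgfra and Vegfa were 0.56, 0.37 and 0.30. Their intervals use a variance drawn toward that of all genes and are narrower than their own 3 pairs alone would give.

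Of the 10 genes, 5 had a negative and 5 a positive difference, and their median was -0.03, against 0.00 over all genes. All 3 pairs had 1 sign for 4 of the 10, against 27.5% of all genes: 3 genes that were lower in the knockout (Pdgfd, Pdgfrb and Vegfd; 13.8% of all genes) and 1 that was higher (Pdgfb; 13.8% of all genes), whose second pair rounds to 0.00. With 3 pairs, a two-sided exact sign test cannot give a p below 0.25. The intervals of the 7 genes other than Vegfd, Pdgfra and Vegfa lay between -0.36 and 0.42, so that differences beyond these bounds lie outside the 95% intervals of those genes, which are not adjusted for the number of genes. A p that misses the threshold does not show that the genotypes were equal.

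Several of these genes differed more between replicate 3 and the other replicates than between the genotypes. Signals were over 1 log2 unit higher on the replicate 3 array than on the mean of replicates 1 and 2, in both genotypes, for 4 of the 10 (Pdgfd, Pdgfra, Vegfa and Vegfd), against 23% of all genes. For Pdgfra this shift was 1.74 in the knockout and 2.16 in wild type, for Vegfa 1.43 in the knockout and 1.03 in wild type, and for Vegfd 1.32 in the knockout and 2.23 in wild type. Pdgfc rose by 1.17 in the knockout and 0.98 in wild type, and Pdgfrb by 0.59 in the knockout and 0.62 in wild type. Pdgfa, Pdgfb, Vegfb and Vegfc shifted the other way in both genotypes, by -0.04 to -0.61 in the knockout and -0.28 to -0.70 in wild type. Over all genes the median shift was -0.10 in each genotype. The SEs of the 10 genes were 0.09 to 0.17 with the replicate block and 0.18 to 1.03 without it.

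The 5 genes nearest in pattern to Vegfd, by root mean square distance of the centred log2 signals over the 6 arrays, were Cped1 (distance 0.14), the integrin subunit Itga8 (0.17), the Hedgehog co-receptor Cdon (0.17), the cysteine dioxygenase Cdo1 (0.18) and Rtl3 (0.18), against a median of 0.67 over 10373 genes compared. All 5 were lower in the knockout in each of the 3 pairs, with differences of -0.60 to -0.74. This likeness in sign and size largely follows from choosing the genes by nearness to Vegfd, as do the small distances. None of the 5 passed the threshold (limma adjusted p between 0.0827 and 0.282). The likeness was measured on the same 6 arrays, and all 5 had the replicate 3 shift, 1.47 to 1.76 in the knockout and 1.78 to 2.02 in wild type. Rtl3 lay above background on 1 of 3 knockout and 2 of 3 wild type arrays.

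**Figure D3:**
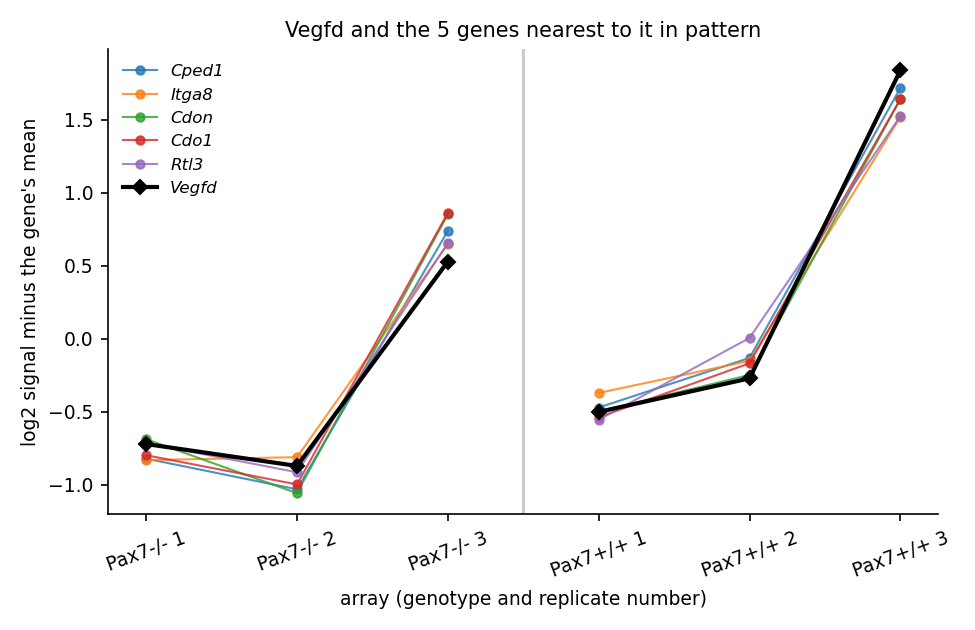
Log2 signal minus each gene's own mean over the 6 arrays (vertical axis) for Vegfd (black) and the 5 genes nearest to it, on the Pax7-/- arrays (left) and the Pax7+/+ arrays (right). The highest point of each gene is wild type replicate 3, followed by knockout replicate 3.

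In the surrounding pathway, 74 of 85 listed genes had a usable probe set, and 0 of them passed in either direction with or without the block. At an unadjusted p under 0.05 there were 6 with the block (8.11%, against 6.73% of all genes). Among the VEGF receptors and co-receptors (5 measured, 0 higher and 0 lower past the threshold, median difference 0.13) the neuropilin Nrp1, a co-receptor of VEGF-A, was at 0.26 (SE 0.09; 0.37, 0.15 and 0.26 in the 3 pairs). Flt4, the receptor of VEGF-C and VEGF-D, was at 0.30 (SE 0.15), with pairs of 0.14, -0.06 and 0.82. Flt1 was at 0.13 (SE 0.09). Kdr, the main signalling receptor of VEGF-A in endothelium, was not above background on any array.

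Among the proteases that activate PDGF and VEGF precursors, listed with their cofactor Ccbe1 (9 genes measured, 0 past the threshold, median 0.02), the proprotein convertase Furin was at 0.21 (SE 0.09), Pcsk6 at -0.19 (SE 0.10) and Pcsk7 at -0.14 (SE 0.11). The signalling proteins downstream of the receptors (19 measured, 0 past the threshold) had a median of 0.01, with the MAP kinase kinase Map2k1 at 0.20 (SE 0.10). The phosphoinositide 3-kinase subunit Pik3cb (0.21, SE 0.10) and the adaptor Nck2 (-0.18, SE 0.11) lay above background on 1 of 3 arrays of each genotype. Among the proteins that restrain receptors (11 measured, 0 past the threshold, median 0.04), Errfi1, known as a feedback inhibitor of the EGF receptor, was at -0.34 with pairs of -0.31, -0.37 and -0.35 (SE 0.09, adjusted p = 0.432). The ubiquitin ligase Cblb was at 0.18 (SE 0.09) and the cytokine signalling suppressor Socs1 at 0.16 (SE 0.09).

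The oxygen sensors and regulators of Vegfa (13 measured, 0 past the threshold) had a median of -0.05. Zfp36l1, which promotes the decay of mRNAs with AU-rich elements such as that of Vegfa, was at -0.26 (SE 0.11; -0.11, -0.14 and -0.53 in the 3 pairs), and the RNA-binding protein Hnrnpl was at -0.21 (SE 0.10). Egln3, a hydroxylase that marks hypoxia-inducible factors for decay, was at 0.29 (SE 0.13), but lay above background on 1 of 3 arrays of each genotype.

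Genes known to respond to PDGF in fibroblasts (13 measured, 0 past the threshold) had a median of 0.14, with pair medians of 0.21, -0.05 and 0.05. The list median was 0.03 without replicate 1. Hbegf, a ligand of the EGF receptor, read 8.81, 8.67 and 10.15 in the knockout, against 8.27, 8.12 and 9.74 in wild type. It was higher in the knockout in every pair, by 0.54, 0.55 and 0.40 (difference 0.50, SE 0.09, limma adjusted p = 0.153). The chemokine Ccl2 read 8.24, 8.01 and 9.19 in the knockout, against 8.47, 8.63 and 9.63 in wild type, lower in every pair (difference -0.43, SE 0.10, adjusted p = 0.362), and the immediate early factor Fos was at 0.24 (SE 0.10). The largest values of this list thus had opposite signs. Other cystine knot growth factors (4 measured, 0 past the threshold, median 0.04) included Ccn2 at 0.11 (SE 0.09), the BMP antagonist Grem1 at -0.10 (SE 0.09) and the neurotrophin Bdnf at 0.07 (SE 0.09), which lay above background on 1 of 3 arrays of each genotype.

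**Figure D4:**
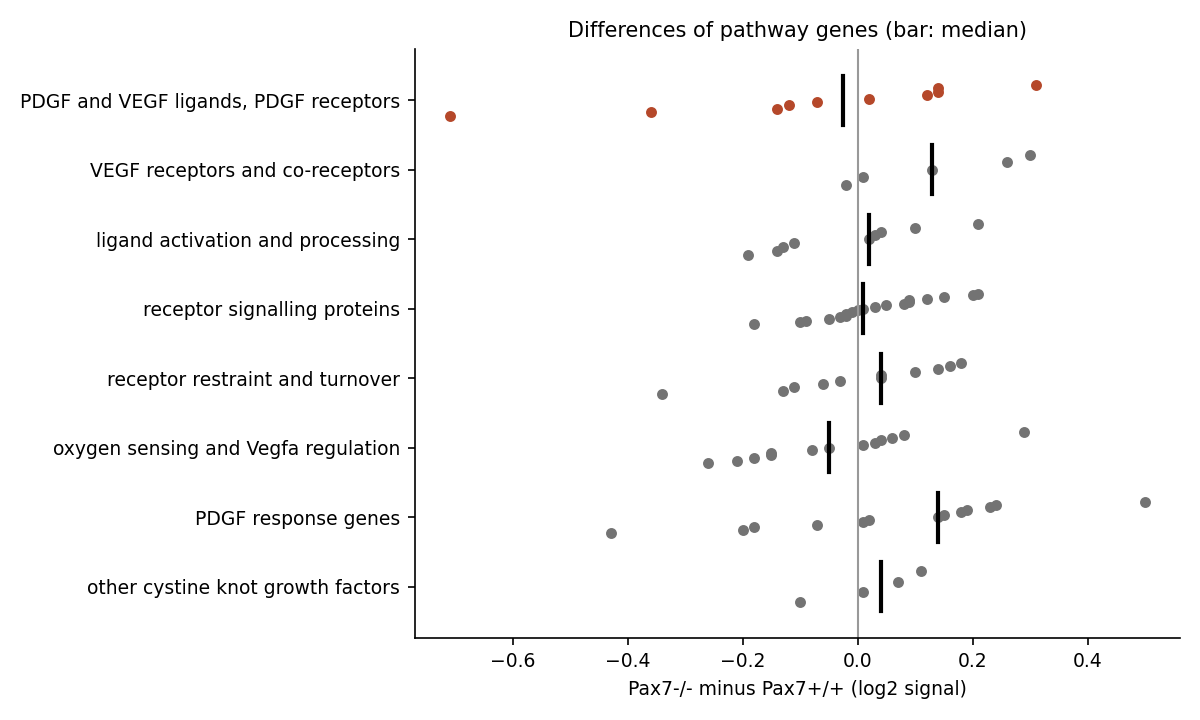
Knockout minus wild type in log2 signal (horizontal axis) for each gene (point) of the 10 PDGF and VEGF genes (red) and of 7 pathway lists (grey), with black bars at the list medians. The medians lie between -0.05 and 0.14, and the points farthest from 0 are Vegfd (-0.71), Hbegf (0.50) and Ccl2 (-0.43).

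Cells of other types could carry these transcripts, so their markers were read on the same arrays. Endothelial markers lay above background on all 6 arrays for 2 of 12 genes (Erg and Egfl7), with a mean log2 signal over the list of 4.55 to 5.09 on knockout and 4.44 to 5.09 on wild type arrays, and Pecam1 was above background on none. Megakaryocyte and platelet markers did so for 3 of 6 measured (Ppbp, Itga2b and Gp9; 5.40 to 5.95 in the knockout and 5.45 to 5.81 in wild type), with Pf4 above it on none. Within that list the chemokine Ppbp read 8.02, 8.10 and 9.97 in the knockout, against 6.78, 7.36 and 9.34 in wild type. Its difference of 0.87 (SE 0.12; 1.24, 0.74 and 0.63 in the 3 pairs; limma adjusted p = 0.0578) was larger in size than that of any of the 10 PDGF and VEGF genes, and did not pass. Macrophage markers did so for 3 of 10 (4.86 to 5.18 in the knockout and 4.86 to 5.21 in wild type) and lymphatic endothelial markers for 1 of 4 measured (4.58 to 4.96 in the knockout and 4.76 to 4.92 in wild type). Pericyte and smooth muscle markers, many of which cultured fibroblasts also express, did so for 10 of 11 (7.82 to 8.12 in the knockout and 7.79 to 8.17 in wild type). Epithelial markers did so for 3 of 6 measured (4.86 to 5.61 in the knockout and 4.84 to 5.67 in wild type) and neural markers for 2 of 7 (5.88 to 6.0 in the knockout and 5.69 to 5.90 in wild type). No marker passed the threshold in any of these lists, and their part in the differences above was not tested.

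**Figure D5:**
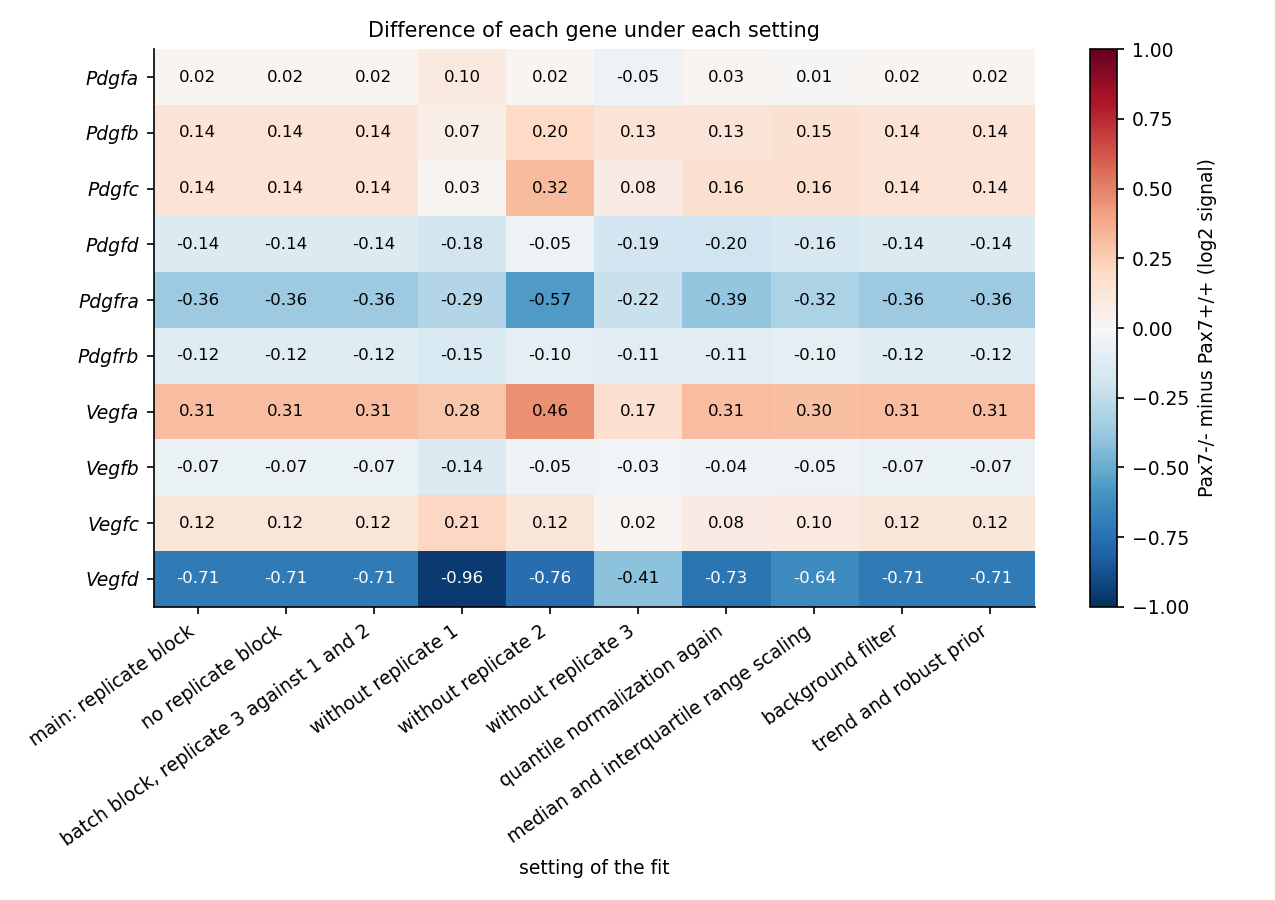
Knockout minus wild type in log2 signal (colour and printed value) of each gene (rows) under the fit with the replicate block and 9 other settings (columns). Vegfd stays between -0.41 and -0.96, Pdgfra between -0.22 and -0.57 and Vegfa between 0.17 and 0.46, and the lowest sizes of these 3 genes are those without replicate 3.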

How the data were processed

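RNA of 6 samples, 3 per genotype, was measured on Affymetrix arrays. The authors deposited 1 log2 signal per probe set and array. Per the submitters' processing notes Partek and RMA (robust multi-array average) were used. No version, setting or genome build is given in the sources used here. The log2 scale was inferred from the span of the signals and from RMA's usual output. The signals were not normalized again, and precision is limited by the number of arrays. Probe sets with 1 annotated gene (23521 of 41345) were used, and a gene with several was represented by the brightest on average over the 6 arrays, which left 22180 genes.

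The genotypes were compared by limma 3.58.1 under R 4.3.3, using lmFit and eBayes with two-sided p-values adjusted by Benjamini-Hochberg over all genes (threshold 0.05), with the replicate number as a block because the comparison was set by replicate number. SEs and 95% intervals are limma's. The eBayes step draws the variance of each gene toward that of all genes, so they do not give the spread of its own pairs alone. Deviations from the genotype mean correlated at 0.92, 0.895 and 0.973 between arrays of equal number 1, 2 and 3, all above the bound of 0.1. This bound could not decide on pairs, because the replicate 3 shift shared by both genotypes raises all such correlations. Crossing replicates 1 and 2 gave 0.898 and 0.91, and replicate 1 minus replicate 2 correlated at only 0.0426 across genotypes. No label states a pairing, and the arrays set apart only replicate 3. The fit was tested on simulated data.

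The genes, lists and background rule were chosen with earlier results of these data known. Besides the 10 genes, the text names Pax7, from each pathway list the genes that passed or, where none did, the 3 genes of smallest p, and the 5 genes nearest in pattern to the gene of the 10 with the smallest p, predicted genes left out. Kdr, the sex-linked genes and the single marker genes fall outside this rule and were named after their values were seen. Alternatives covered the block, a batch block, leaving out each replicate number, normalization, a background filter and the eBayes prior. Listed genes without a usable probe set were not analysed here.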

Additional observations from a re-analysis of the deposited data

How the results depend on the processing

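With the replicate block 17 genes passed the threshold, and 0 of them were among the 10 PDGF and VEGF genes. The count of genes was 0 with no replicate block, where the 10 differences were the same and 0 of the 10 passed. A batch block of replicate 3 against 1 and 2 gave 19 genes, with Vegfd at -0.71 (limma adjusted p = 0.33). The count was 15 with quantile normalization again and 11 with each array scaled to a common median and interquartile range. It was 42 among the 11048 genes left by the background filter, which tests fewer genes, and 46 with a trend and robust prior. It ranged from 2 to 98 when both arrays of 1 replicate number were left out (98, 2 and 4 without replicates 1, 2 and 3). Leaving out 1 array of a pair gives the same fit, because its partner then carries no information. Of the 10 genes 0 to 1 passed in these fits, the 1 being Vegfd without replicate 1 (-0.96, adjusted p = 0.00408). The cause was not tested. Over the 90 values of single genes under alternatives, 1 changed sign, Pdgfa at -0.05 without replicate 3 (range -0.05 to 0.10 over the fits without 1 replicate number). The median of the VEGF receptor list was 0.20 with the background filter, which drops Kdr, and that of the other cystine knot factors was 0.00 to 0.07 without 1 replicate number. Without replicate 1 the median of the PDGF response genes was 0.03 (0.14 with all pairs) and that of oxygen sensing -0.12 (-0.05 with all pairs). Medians near 0 changed sign without replicate 1: ligand activation -0.05, receptor signalling -0.03 and receptor restraint -0.01, the last also without replicate 2. With the background filter that of ligand activation was -0.04. The choice between probe sets could not be varied, since each of the 10 genes had 1. With 3 pairs, and Pdgfd, Vegfd and Pdgfra near background on some arrays of replicates 1 and 2, differences of the sizes seen here can miss the threshold.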
